A study of Mus musculus with 76 samples.

Results

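The potassium channel genes described here are the protein-coding mouse genes whose symbol begins with Kcn. They were taken by symbol alone, and the noncoding Kcnq1ot1 was left out. GENCODE M21 annotates 94 such genes, of which 84 are among the 14823 genes of the deposited table and 10 were not analysed here. By symbol, 37 of the 84 encode voltage-gated α subunits (Kcna, Kcnb, Kcnc, Kcnd, Kcnf, Kcng, Kcnh, Kcnq, Kcns and Kcnv), 10 leak channels (Kcnk), 14 inward rectifiers (Kcnj) and 8 calcium- or sodium-activated channels (Kcnma, Kcnn, Kcnt and Kcnu). The other 15 are auxiliary genes (Kcnab, Kcne, Kcnip, Kcnmb and Kcnrg). After a filter on low counts 80 members were tested: 36 voltage-gated, 10 leak, 13 inward rectifier, 8 calcium- or sodium-activated and 13 auxiliary. Kcng4, Kcnj15, Kcne3 and Kcnmb1 were too low to be tested.

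RNA was sequenced from dorsal forebrain, the region that forms the cerebral cortex, of mouse embryos (strain C57BL/6J, embryonic day 16). Their parents had received α-cypermethrin, a pyrethroid insecticide that acts on voltage-gated sodium channels, or vehicle for 28 days ahead of mating: a run of 7 days, then 3 cycles of 2 days off and 5 days on. The dose label is 0.3 or 10, and no unit is labelled. In Paternal_0.3Cyp (n = 12 libraries) and Paternal_10Cyp (n = 10) the father was exposed and the mother had vehicle, and in Maternal_0.3Cyp (n = 12) and Maternal_10Cyp (n = 8) the mother was exposed and the father had vehicle. Both parents had the same dose in Both_0.3Cyp (n = 12) and Both_10Cyp (n = 10), and both had vehicle in Ctrl (n = 12). All embryos share the strain and carry no labelled mutation, the parents' age is not labelled, and each library has a labelled sex and batch (1 or 2). No litter is labelled, so littermates may count as separate replicates, and the p-values then measure a spread that may be smaller than that between litters.

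Potassium channels let potassium ions cross the cell membrane, mostly outward along their gradient, and so hold the resting potential and end action potentials. Voltage-gated channels open when a neuron is depolarised, leak channels are open at rest, inward rectifiers pass current near the resting potential, and calcium- or sodium-activated channels link firing to ions that have entered the cell. Auxiliary subunits change the traffic and the gating of the pore-forming subunits. In the embryonic cortex, young neurons gain voltage-gated potassium currents as they mature, while progenitor cells keep a negative resting potential largely through leak and inward rectifier channels.

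Library totals ran from 17.7 M to 41.4 M estimated counts (M, mega; median 19.2 M), and those of Both_10Cyp, at 21.2 M or more, lay above those of Ctrl, at 19.9 M or less. All 10 markers of the dorsal telencephalon that were checked, such as Emx1, Tbr1 and Neurod6, were present in every group, with a summed level of 1505 to 3907 normalised CPM (counts scaled to library totals adjusted by TMM) over the exposed libraries and 2004 to 3694 in Ctrl. Paternal_0.3Cyp replicate 9 stood apart most, with 501.4 normalised CPM of 9 diencephalon markers summed, against a median of 38.4 in its group. Ctrl replicate 3, which enters each comparison with Ctrl, was also high, with 201 in the same sum. So were Paternal_0.3Cyp replicate 6, with 154.3, and Paternal_10Cyp replicate 1, with 106.9. In all, 7 libraries were high in these markers and 5 in embryonic globins (more than 3 median absolute deviations above the median of all libraries). The counts of members called against Ctrl, and the members' medians, are given with and without these libraries.

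In Ctrl, the highest levels per exonic length (counts per kilobase, scaled to the same total per library) came from several families. Kcnk2, a leak channel opened by stretch and lipids (chromosome 1, 189207930 to 189402273), had a median level per length of 49.5 with a range of 41.4 to 51.4 over the 12 libraries. The auxiliary genes Kcnmb4, a β subunit of the large-conductance calcium-activated channel, and Kcne1l, a small β subunit, had medians of 42.4 and 39.2. Kcna6, a Shaker-type delayed rectifier (ENSMUSG00000038077; chromosome 6, 126708329 to 126740674), had 36.0 and a range of 27.0 to 45.5, so that it does not stand apart from its neighbours in this order. Kcnk1, a leak channel that passes little current at the membrane, had 32.9.

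Among the inward rectifiers, the pore subunits of ATP-sensitive channels were the highest: Kcnj11 had a median level per length of 31.7 and Kcnj8, known from pericytes and smooth muscle, 18.8. Kcnn1, a small-conductance calcium-activated channel, led its family with 18.0, and Kcnma1, the pore of the large-conductance calcium-activated channel, followed with 9.60. The median over the 84 members was 5.48, against 18.2 over all genes of the table, and 19 members lay above that of all genes. At the low end Kcng4, a silent voltage-gated subunit, had a median of 0 in Ctrl and no count in 33 of the 76 libraries. Kcnmb1 lies within the span of Kcnip1 on the opposite strand. No stranded counting is stated and overlap of their exons was not checked, so the origin of the few reads of Kcnmb1 is uncertain.

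**Figure D1:**
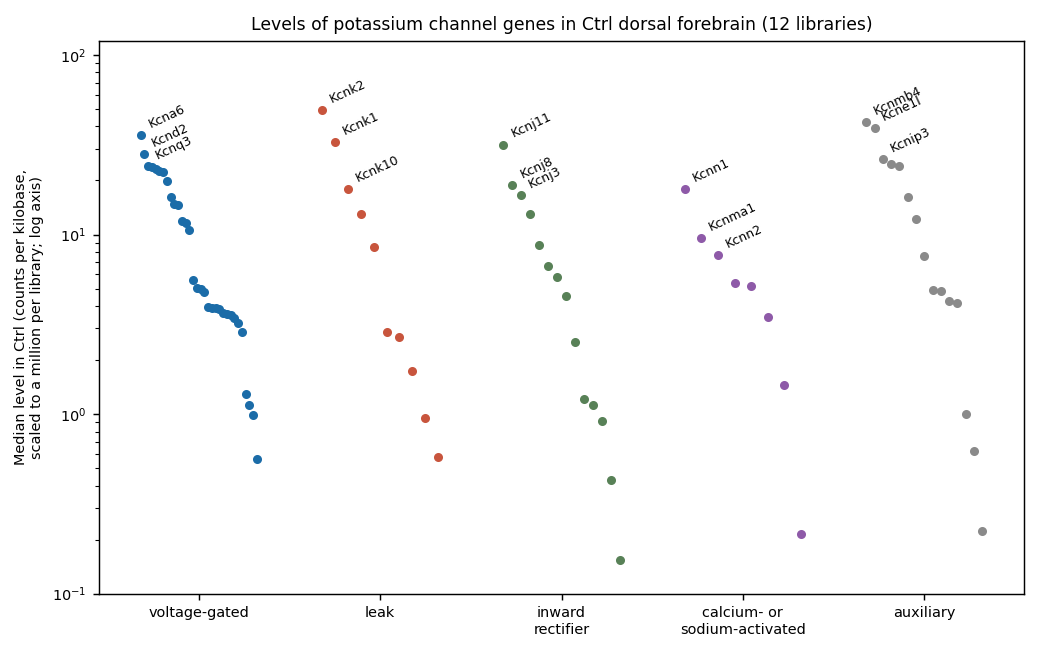
Median level per exonic length in the 12 Ctrl libraries (counts per kilobase scaled to the same total per library, log axis) of the potassium channel genes reported here, ordered within their family; Kcng4, with a median of 0, is not drawn. Of the genes drawn, Kcna6 (36.0), Kcnk2 (49.5), Kcnmb4 (42.4), Kcnj11 (31.7) and Kcnn1 (18.0) lead the 5 families, and levels within the voltage-gated family reach down to 0.561 for Kcng3.

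Relative to Ctrl, the members that changed in the embryos of exposed parents were nearly all lower. A gene is called where its edgeR quasi-likelihood p, 2-sided and adjusted by Benjamini-Hochberg over 14339 genes, is under 0.05. Voltage-gated channels were 36 of the 80 tested members. They held 11 of 20 calls in Paternal_0.3Cyp, 15 of 23 in Maternal_0.3Cyp and 14 of 26 in Both_0.3Cyp. At dose 10 they held 7 of 12 in Paternal_10Cyp, 21 of 40 in Maternal_10Cyp and 2 of 2 in Both_10Cyp. In Paternal_0.3Cyp 20 of the 80 tested members were called lower and 0 higher, where 12.2% of all genes tested were called lower and 15.4% higher. In Maternal_0.3Cyp 23 were called lower and 0 higher (all genes 12.8% and 10.9%), and in Both_0.3Cyp 26 and 0 (all genes 11.8% and 10.5%). In Paternal_10Cyp 12 were called lower and 0 higher (all genes 10.8% and 10.7%). Maternal_10Cyp had the most, with 38 called lower and 2 called higher, where 40.8% of all genes were called, 20.4% in each direction. In Both_10Cyp 2 were called lower and 0 higher (all genes 1.58% and 2.34%, together 3.91%). In Both_10Cyp (2.5% of members lower) the count is near the background and is not read as a difference. In either direction 27.6%, 23.7%, 22.3% and 21.5% of all genes were called in Paternal_0.3Cyp, Maternal_0.3Cyp, Both_0.3Cyp and Paternal_10Cyp. Counted this way, the members' shares were below those of all genes in Paternal_0.3Cyp, Paternal_10Cyp and Both_10Cyp. They were above those of all genes in Maternal_0.3Cyp, Both_0.3Cyp and Maternal_10Cyp. The 6 comparisons share the 12 Ctrl libraries, and in this tissue fewer cells of a type and less RNA per cell cannot be told apart.

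The median log2 fold change over the 80 members was -0.18 in Paternal_0.3Cyp, -0.22 in Maternal_0.3Cyp, -0.24 in Both_0.3Cyp, -0.21 in Paternal_10Cyp, -0.33 in Maternal_10Cyp and -0.17 in Both_10Cyp, while the medians of all genes tested lay between -0.013 and 0.011. These medians moved with the fit. With the log2 ratio of embryonic to adult globin counts as a covariate the medians of the members were -0.079, -0.142, -0.127, -0.142, -0.169 and -0.12 in the same order. With 2 surrogate variables (terms for unlabelled variation estimated from the counts themselves) they were -0.007, -0.009, -0.025, -0.021, -0.008 and -0.001, near those of all genes. Without the 7 libraries high in diencephalon markers they were -0.184, -0.21, -0.215, -0.159, -0.289 and -0.131, and without the 5 high in embryonic globin -0.138, -0.222, -0.241, -0.208, -0.33 and -0.091. Between 63 members (Both_10Cyp) and 69 members (Paternal_0.3Cyp) of 80 had a negative value. Over the 6 comparisons, 55 members were below 0 in each and 6 were above 0 in each: Kcnn1, Kcne1l, Kcnj11, Kcnj13, Kcnk5 and Kcne2. At least 1 call was made for 44 members (55%), where 49.2% of all genes had 1 or more. In 4 or more comparisons 18 members (22.5%) were called, each lower, where 17.7% of all genes were called in 4 or more and 9.24% were called lower in 4 or more. No member was called higher in 1 comparison and lower in another. A joint test of the 6 exposed groups called 20 of the 80 members, close to the 21.7% of all genes, with the lowest adjusted p for Kcna6 (0.00202), Kcnj2 (0.00373) and Kcnd1 (0.00635).

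**Figure D2:**
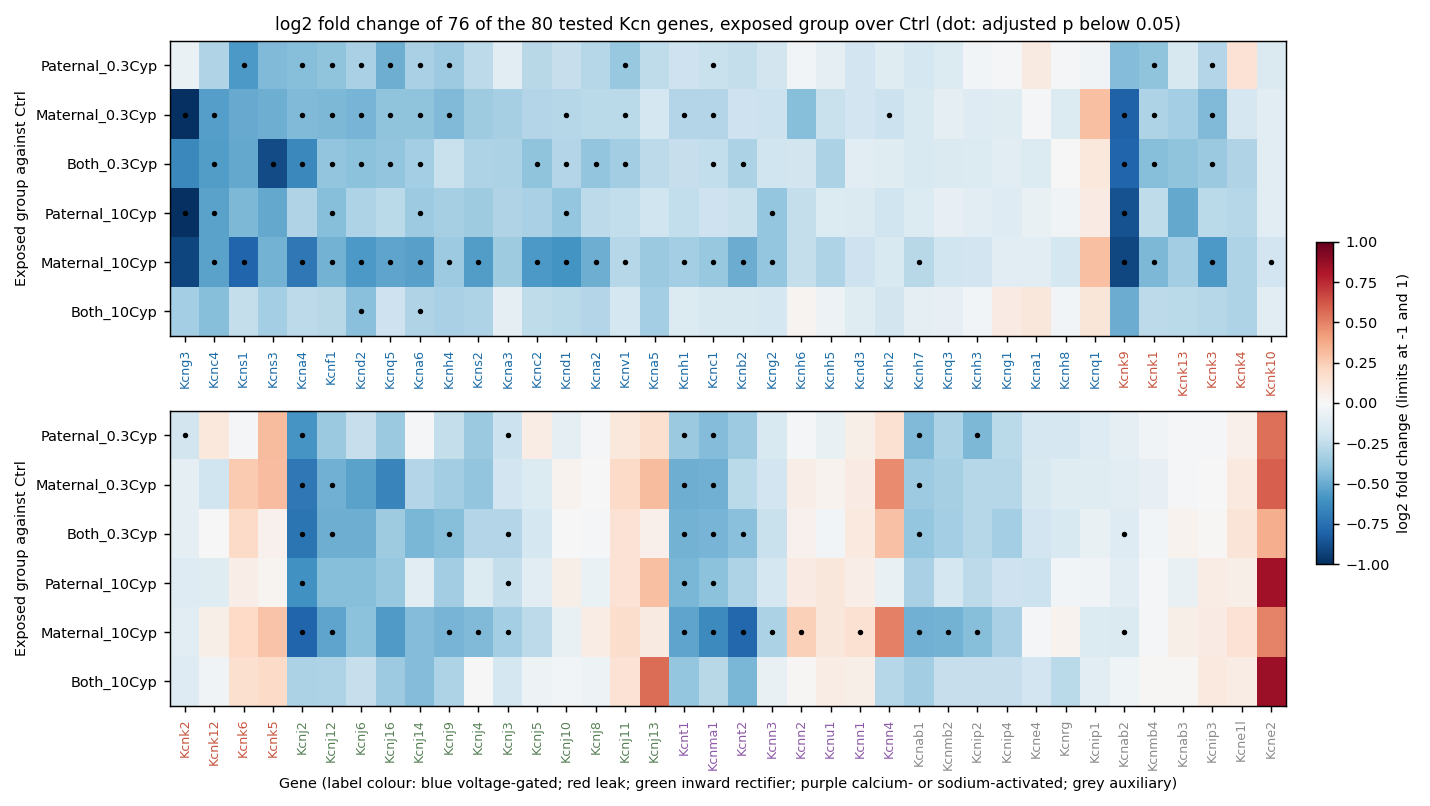
Fitted log2 fold change of 76 of the 80 tested potassium channel genes (columns, grouped by family as marked by label colour) in each exposed group over Ctrl (rows), with a dot at an edgeR adjusted p below 0.05 and the colours ending at -1 and 1. Blue (lower) covers most of the voltage-gated columns in all 6 rows, and Maternal_10Cyp has the most dots and Both_10Cyp 2 (Kcna6 and Kcnd2).

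Ordered by family, the voltage-gated channels, which are the largest family, had the most calls: 11, 15, 14, 7, 21 and 2 of 36 were lower in Paternal_0.3Cyp, Maternal_0.3Cyp, Both_0.3Cyp, Paternal_10Cyp, Maternal_10Cyp and Both_10Cyp, and 0 were higher. In the same order 3, 3, 3, 1, 4 and 0 of 10 leak channels, 2, 2, 4, 2, 5 and 0 of 13 inward rectifiers, and 2, 2, 3, 2, 4 and 0 of 8 calcium- or sodium-activated channels were lower. Of the 13 auxiliary genes 2, 1, 2, 0, 4 and 0 were lower. The family medians in Maternal_10Cyp were -0.37 for voltage-gated channels, -0.41 for inward rectifiers, -0.25 for leak channels, -0.10 for calcium- or sodium-activated channels and -0.017 for auxiliary genes (log2 fold changes), and whether families differ from each other was not tested.

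**Figure D3:**
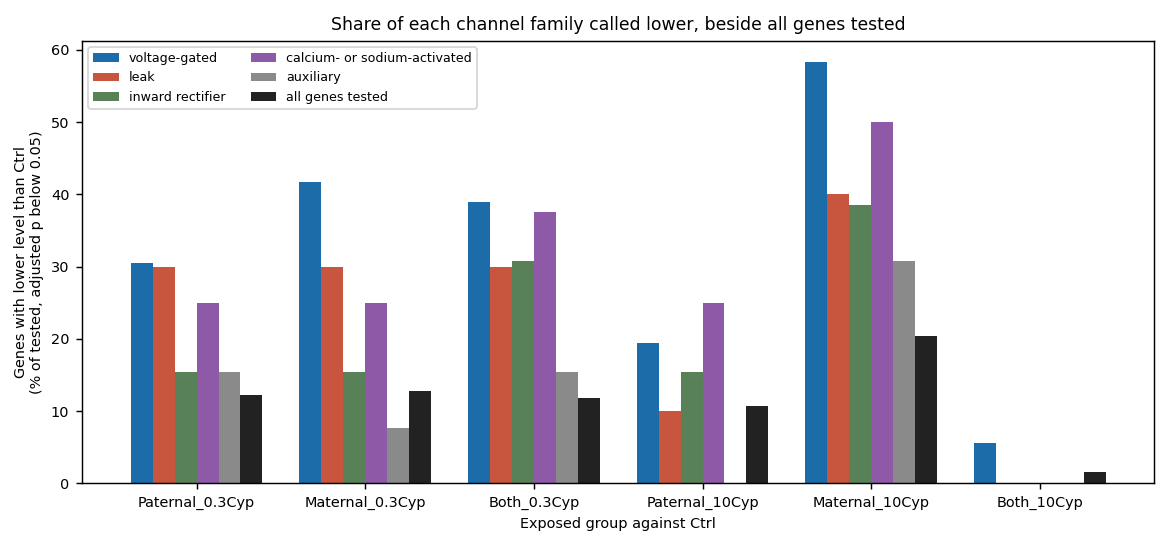
Percent of the tested genes of each channel family, and of all genes tested (black), called lower than Ctrl in each exposed group (edgeR adjusted p below 0.05). The voltage-gated bar lies above the black bar in all 6 groups, up to 21 of 36 in Maternal_10Cyp where all genes reach 20.4%, and in Both_10Cyp only the voltage-gated and all-gene bars are above 0.

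The counts moved with single libraries. In Maternal_10Cyp, with 40 calls from all libraries, leaving out each library of the comparison in turn gave 31 (without Maternal_10Cyp replicate 1 or Ctrl replicate 3) to 44 calls. In Paternal_0.3Cyp the range was 8 to 40: 40 without replicate 9, 8 without replicate 4 or 8, 11 without 3 and 12 without 6, and among Ctrl libraries 31 without replicate 6, 13 without 8, 12 without 12, 10 without 3 and 9 without 7. In Maternal_0.3Cyp it was 13 (without Ctrl replicate 7) to 30, with 15 without Ctrl replicate 3, and in Both_0.3Cyp 13 (without Ctrl replicate 3) to 32. In Paternal_10Cyp it was 4 to 23: 4 without replicate 6, 5 without 2 or 5 and 6 without 1, and 23, 7, 5 and 4 without Ctrl replicates 6, 8, 3 and 7. In Both_10Cyp 0 calls remained without its replicates 1, 2, 5, 7, 8 or 9 or Ctrl replicates 3, 7, 8, 9, 10 or 12, 1 without Ctrl replicate 11, and 4 were made without its replicate 3 or 4 or Ctrl replicate 6. With 2 surrogate variables as further terms the 6 counts were 0, 0, 0, 0, 1 and 0 of 80, where 0%, 0%, 0%, 1.1%, 3.1% and 0.1% of all genes were called. In batch 1 alone they were 0, 0, 0, 0, 2 and 0 of 81 (all genes 0%, 0%, 0%, 1.3%, 3.3% and 0%). In batch 2 alone they were 6, 17, 7, 9, 24 and 15 of 80 (all genes 9.1%, 16.1%, 9.2%, 14.5%, 27.5% and 14.9%), so that the members' shares in Paternal_0.3Cyp, Both_0.3Cyp and Paternal_10Cyp, at 7.5%, 8.8% and 11.2%, were below those of all genes. With the 7 libraries of high diencephalon content left out they were 5, 19, 22, 2, 36 and 0 (all genes 13.5%, 18.5%, 17.9%, 8.5%, 39.3% and 1.5%), and without the 5 high in embryonic globin 7, 31, 29, 26, 40 and 0 (all genes 14.2%, 27.9%, 26.4%, 27.1%, 43.3% and 0.1%).

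Kcna6 was the only member called in all 6 comparisons, lower in each. Its lowest, median and highest normalised CPM were 37.7, 42.2 and 44.3 in Maternal_10Cyp, against 45.4, 58.3 and 76.2 in Ctrl. All 8 Maternal_10Cyp libraries thus lay below all 12 Ctrl libraries, in a comparison where 20.4% of all genes were called lower, and the spread in Maternal_10Cyp (SD 2.17) was narrower than that in Ctrl (SD 9.18). The share of all genes whose libraries do not overlap is not given here, so the separation is not read as particular to Kcna6. The log2 fold change of Kcna6 was -0.54 ± 0.10 (SE; edgeR adjusted p = 0.000105), and it stayed between -0.57 and -0.49 when single libraries were left out. Kcna6 in Maternal_10Cyp was called in each of the 15 other settings tried, with adjusted p from 8.03e-08 to 0.0438. In the new fits of each batch it had -0.45 in batch 1 and -0.62 in batch 2. Over both batches Kcna6 had -0.38 in Maternal_10Cyp after adjustment for the globin ratio, and -0.20 with 2 surrogate variables.

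The other groups overlapped Ctrl in Kcna6. The medians were 49.8 normalised CPM in Paternal_0.3Cyp, 45.7 in Maternal_0.3Cyp, 46.7 in Both_0.3Cyp, 46.2 in Paternal_10Cyp and 53.6 in Both_10Cyp, each below the Ctrl median of 58.3. Their log2 fold changes were -0.32 ± 0.09, -0.40 ± 0.09, -0.34 ± 0.09, -0.36 ± 0.09 and -0.30 ± 0.09 (SE), with edgeR adjusted p of 0.007, 0.00401, 0.008, 0.00702 and 0.0475. In Both_10Cyp the call of Kcna6 was lost in 13 of 22 fits without 1 library, and the value was -0.15 in batch 1 and -0.42 in batch 2. Kcna6 lies beside Kcna1 and Kcna5 on chromosome 6 (126532551 to 126740674 from Kcna5 to Kcna6), and these neighbours were not called in any comparison: in Maternal_10Cyp Kcna1 had -0.12 (edgeR adjusted p = 0.558) and Kcna5 -0.37 (edgeR adjusted p = 0.0732).

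**Figure D4:**
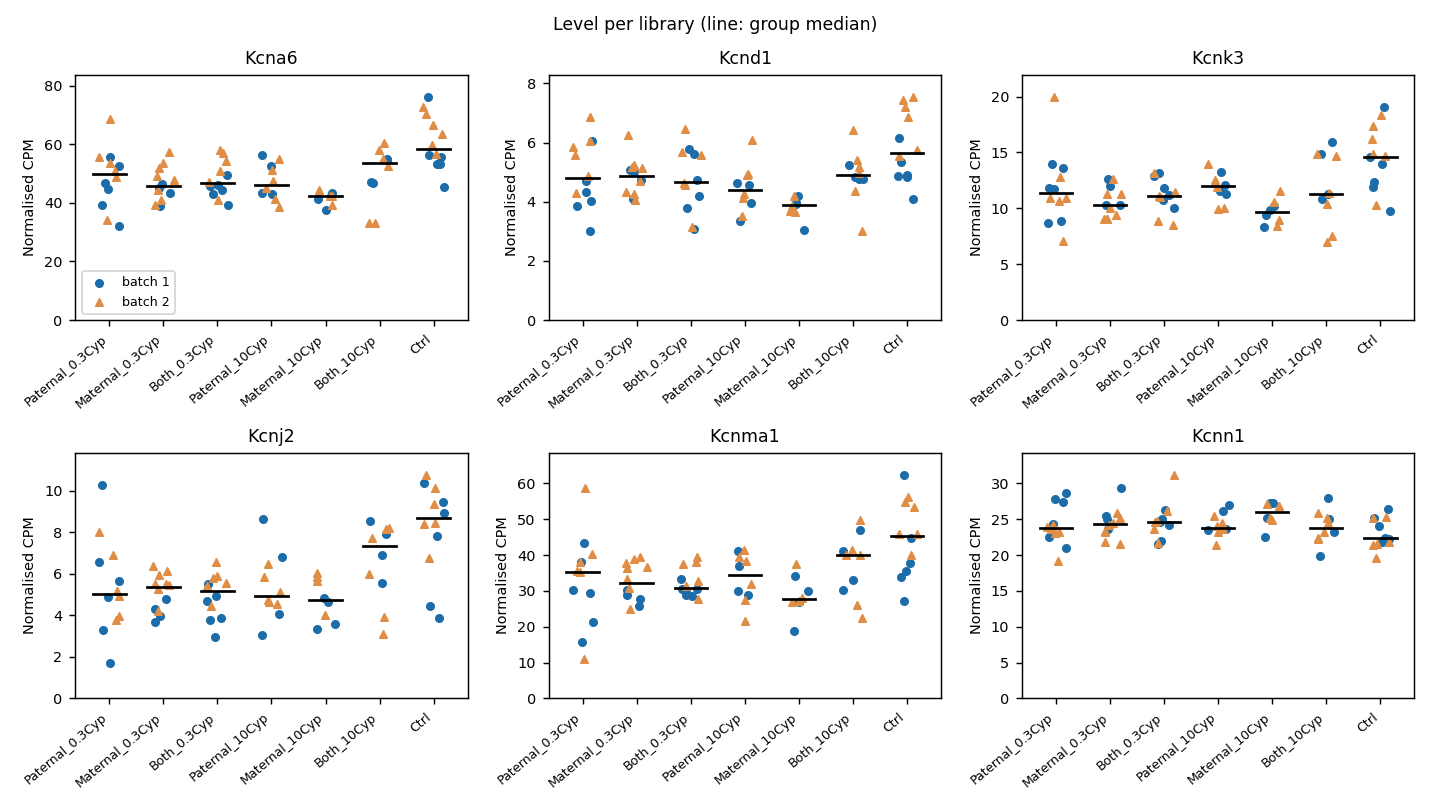
Normalised CPM of 6 potassium channel genes in each library (circles batch 1, triangles batch 2), with a line at the group median and the exposed groups left of Ctrl. All 8 Maternal_10Cyp libraries of Kcna6 lie below all Ctrl libraries, those of Kcnd1, Kcnk3, Kcnj2 and Kcnma1 overlap the lowest Ctrl libraries, and Kcnn1 has its highest group median, 26.0, in Maternal_10Cyp.

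Channels of the A current and delayed rectifiers were also lower in Maternal_10Cyp. Kcnd1, an A-type α subunit (chromosome X, 7822289 to 7838280), had 3.05, 3.88 and 4.197 normalised CPM (lowest, median, highest) in Maternal_10Cyp, against 4.08, 5.65 and 7.54 in Ctrl. Of the 8 libraries 6 lay below all Ctrl libraries, and the log2 fold change was -0.60 ± 0.12 (SE; edgeR adjusted p = 0.000163). Kcnd2, which carries the A current of dendrites (chromosome 6, 21215503 to 21729805), had 25.4, 28.9 and 34.9 normalised CPM in Maternal_10Cyp, against 30.3, 41.4 and 72.1 in Ctrl. The ranges of Kcnd2 overlapped, with a log2 fold change of -0.58 ± 0.14 (SE; edgeR adjusted p = 0.00098). Kcnd2 was lower in 5 comparisons, among them Both_10Cyp with -0.42 ± 0.13 (SE; edgeR adjusted p = 0.0476), where the call was lost in 12 of 22 fits without 1 library. Kcnd3, also an A-type gene, had -0.21 in Maternal_10Cyp and was not called in any comparison (edgeR adjusted p = 0.0648 there).

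Kcnb2, a delayed rectifier of neurons, was lower in Maternal_10Cyp (-0.49 ± 0.12, SE; edgeR adjusted p = 0.00125) and in Both_0.3Cyp (-0.32; edgeR adjusted p = 0.0288). Subunits that form no channel alone but change Kcnb channels were also lower: Kcnf1 was lower in 5 comparisons and Kcnv1 in 4. Kcnf1 (chromosome 12, 17172100 to 17176888) had a median of 14.6 normalised CPM in Maternal_10Cyp, against 19.2 in Ctrl. Kcnv1 was lowest in Paternal_0.3Cyp, with a median of 16.3 normalised CPM against 20.1 in Ctrl and 8 of 12 libraries below all Ctrl libraries (log2 fold change -0.38 ± 0.10, SE; edgeR adjusted p = 0.0057).

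The genes Kcnc1, Kcnc2 and Kcnc4, which let neurons repolarise quickly, were lower in Maternal_10Cyp. Kcnc1 had 38.6, 46.7 and 51.4 normalised CPM (lowest, median, highest) in Maternal_10Cyp, against 45.9, 58.5 and 78.8 in Ctrl, and a log2 fold change of -0.38 ± 0.09 (SE; edgeR adjusted p = 0.00064). Kcnc2 had 3.42, 4.62 and 6.91 in Maternal_10Cyp, against 4.73, 6.98 and 9.06 in Ctrl (log2 fold change -0.57 ± 0.14, SE; edgeR adjusted p = 0.00103). Kcnc4 was lower in 4 comparisons, but in Paternal_0.3Cyp, with -0.30, it was not called (edgeR adjusted p = 0.223), and there replicate 9, the library high in diencephalon markers, held 32.2 normalised CPM against a group median of 8.94. Without replicate 9 Kcnc4 was called lower in Paternal_0.3Cyp, with -0.595 (edgeR adjusted p = 0.00338). Without all 7 libraries high in diencephalon markers, Ctrl replicate 3 among them, it was not called, with -0.34 (edgeR adjusted p = 0.111).

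Among genes of the M current, which holds neurons below threshold, Kcnq5 was lower in 4 comparisons, with a median of 17.7 normalised CPM in Maternal_10Cyp, against 24.0 in Ctrl (log2 fold change -0.53 ± 0.16, SE; edgeR adjusted p = 0.00768). Kcnq3 was called in 0 comparisons, with -0.20 in Maternal_10Cyp (edgeR adjusted p = 0.0529). Of the 8 Kcnh genes, which include the ether-à-go-go family, 3 were lower in Maternal_10Cyp: Kcnh1, Kcnh4 and Kcnh7. Kcnh2 was called in Maternal_0.3Cyp alone (-0.22; edgeR adjusted p = 0.025). Of the remaining Shaker-type genes, Kcna4 was lower in 4 comparisons and Kcna2 in 2, and Kcna3 was called in 0.

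The region before the start site is shown for the members that were lower in 5 or more comparisons and whose window lies outside the gene in both annotations, so that the sequences of genes that moved together can be set side by side. RefSeq (GRCm38.p6) has a promoter for 61 of the 84 members. Of the members concerned, Kcnt1 has none in the table, and the windows of Kcna6 and Kcnma1 overlap a transcript. The 250 bases before the start site are on the gene's strand, 5′ to 3′, at chr11:111065914-111066163 (plus strand) for Kcnj2, chr12:17176889-17177138 (minus strand) for Kcnf1 and chr6:21215096-21215345 (plus strand) for Kcnd2. Capitals mark matches to the GC box GGGCGG, bound by Sp1-type factors.
Kcnj2: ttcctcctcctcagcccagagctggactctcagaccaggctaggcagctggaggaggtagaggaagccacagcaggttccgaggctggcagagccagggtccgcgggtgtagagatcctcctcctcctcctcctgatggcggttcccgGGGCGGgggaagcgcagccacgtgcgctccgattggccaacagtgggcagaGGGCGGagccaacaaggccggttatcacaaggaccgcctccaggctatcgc
Kcnf1: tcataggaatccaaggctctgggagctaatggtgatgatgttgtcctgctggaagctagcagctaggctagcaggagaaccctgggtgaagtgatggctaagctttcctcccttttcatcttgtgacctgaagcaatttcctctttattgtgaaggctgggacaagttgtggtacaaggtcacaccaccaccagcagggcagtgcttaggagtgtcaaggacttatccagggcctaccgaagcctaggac
Kcnd2: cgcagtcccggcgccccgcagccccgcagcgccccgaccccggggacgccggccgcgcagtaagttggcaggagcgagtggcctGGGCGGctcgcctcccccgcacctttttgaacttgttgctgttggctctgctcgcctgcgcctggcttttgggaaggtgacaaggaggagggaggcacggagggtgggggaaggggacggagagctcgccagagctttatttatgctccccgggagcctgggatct

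Searched on both strands with overlapping matches counted, the GC box occurs 2 times before Kcnj2, starting at positions -102 and -51 from the start site, 1 time before Kcnd2 at -166, and has no match before Kcnf1. The TATA box TATAAA and the cAMP response element TGACGTCA have no match in these 3 windows. Of the 86 RefSeq promoters of the members, 46.5% hold a GC box in the 250 bases before the start site, against 32.7% of all 32851 promoters of the table. The TATA box is in 3.5% of the members' promoters, against 12.4% of all, and TGACGTCA in 0.0%, against 1.5%. These matches describe the letters and are not measured sites.

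Among the leak channels, the acid-sensitive channels Kcnk3 and Kcnk9 and the weak channel Kcnk1 were lower in 4 comparisons each. Kcnk3 (chromosome 5, 30588170 to 30625271) had 8.36, 9.65 and 11.5 normalised CPM (lowest, median, highest) in Maternal_10Cyp, against 9.77, 14.6 and 19.0 in Ctrl, and 4 of the 8 libraries lay below all Ctrl libraries. Its log2 fold change was -0.58 ± 0.13 (SE; edgeR adjusted p = 0.000472). Kcnk9 (chromosome 15, 72501089 to 72546340) had 4.41, 5.75 and 7.07 in Maternal_10Cyp, against 5.37, 9.56 and 18.9 in Ctrl. Where it was called, its log2 fold changes ran from -0.79 in Both_0.3Cyp to -0.91 ± 0.25 (SE; edgeR adjusted p = 0.00328) in Maternal_10Cyp. In Paternal_0.3Cyp Kcnk9 had -0.44 ± 0.22 (SE; edgeR adjusted p = 0.123), where replicate 9 held 32.7 normalised CPM against a group median of 6.97. Without replicate 9 the value was -0.84 (edgeR adjusted p = 0.000994), and the 2 batches gave -0.86 and -0.12. The fit without replicate 9 kept Ctrl replicate 3, also high in diencephalon markers. The value without all libraries high in these markers is not given here. Kcnk1 had a median of 14.8 normalised CPM in Maternal_10Cyp, against 20.2 in Ctrl (log2 fold change -0.45 ± 0.13, SE; edgeR adjusted p = 0.00361).

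The leak channels Kcnk2 and Kcnk10, which are sensitive to stretch and lipids, moved less, and Kcnk2 is among the highest members. Kcnk2 had a median of 59.8 normalised CPM in Paternal_0.3Cyp, the group where it was called, against 66.1 in Ctrl (log2 fold change -0.18 ± 0.07, SE; edgeR adjusted p = 0.0347). In Maternal_10Cyp the median of Kcnk2 was 61.2 and the log2 fold change -0.10 (edgeR adjusted p = 0.28). Kcnk10 was lower in Maternal_10Cyp alone, by a small amount (-0.19; edgeR adjusted p = 0.0131). Kcnk4, Kcnk5, Kcnk6, Kcnk12 and Kcnk13 were called in 0 comparisons, and Kcnk5, known mainly from epithelia, was above 0 in all 6.

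Kcnj2, a strong inward rectifier that holds the resting potential (ENSMUSG00000041695; chromosome 11, 111066164 to 111076821), was lower in 5 comparisons. It had 3.36, 4.72 and 6.02 normalised CPM (lowest, median, highest) in Maternal_10Cyp, against 3.87, 8.68 and 10.8 in Ctrl. The ranges overlapped, since 2 Ctrl libraries were as low as the exposed ones, and the log2 fold change was -0.80 ± 0.19 (SE; edgeR adjusted p = 0.00104). In the other groups the medians of Kcnj2 were 5.05 in Paternal_0.3Cyp, 5.36 in Maternal_0.3Cyp, 5.18 in Both_0.3Cyp, 4.94 in Paternal_10Cyp and 7.32 in Both_10Cyp. The log2 fold changes were -0.59, -0.71, -0.73, -0.60 and -0.32 in these groups, and the last of these was not called (edgeR adjusted p = 0.215). With the globin ratio as a covariate Kcnj2 in Maternal_10Cyp was -0.41.

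Of the G-protein-gated inward rectifiers, which slow firing when transmitters bind their receptors, Kcnj3 was lower in 4 comparisons and Kcnj9 in 2. Kcnj3 had 14.5, 17.0 and 22.9 normalised CPM (lowest, median, highest) in Maternal_10Cyp, against 18.1, 23.5 and 25.8 in Ctrl, with 5 of 8 libraries below all Ctrl libraries (log2 fold change -0.34 ± 0.09, SE; edgeR adjusted p = 0.00133). Kcnj6 and Kcnj5 were called in 0 comparisons. The pores of ATP-sensitive channels were not called either: Kcnj11 had a median of 36.9 normalised CPM in Maternal_10Cyp, against 32.6 in Ctrl (log2 fold change 0.18, edgeR adjusted p = 0.106), and was above 0 in all 6 comparisons. Kcnj8 had 0.077 (edgeR adjusted p = 0.502). Kcnj10, the rectifier of astroglia, had medians of 18.6 normalised CPM in Maternal_10Cyp and 19.5 in Ctrl (log2 fold change -0.078, edgeR adjusted p = 0.412).

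Kcnma1, the pore of the large-conductance calcium-activated channel (chromosome 14, 23289431 to 24014491), was lower in 5 comparisons. It had 18.9, 27.6 and 37.5 normalised CPM (lowest, median, highest) in Maternal_10Cyp, against 27.2, 45.2 and 62.3 in Ctrl, and 4 of 8 libraries lay below all Ctrl libraries (log2 fold change -0.64 ± 0.16, SE; edgeR adjusted p = 0.00158). The sodium-activated channel Kcnt1 was lower in the same 5 comparisons, with -0.53 ± 0.17 in Maternal_10Cyp (SE; edgeR adjusted p = 0.00885). Its paralog Kcnt2 was low in level, with 0.750, 1.72 and 2.66 normalised CPM in Maternal_10Cyp, against 1.12, 2.87 and 4.24 in Ctrl, and was lower there (-0.79 ± 0.18, SE; edgeR adjusted p = 0.00054) and in Both_0.3Cyp.

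The small-conductance calcium-activated channels, which give the slow pause after a spike, held the members that were higher. Kcnn1 had 22.5, 26.0 and 27.3 normalised CPM (lowest, median, highest) in Maternal_10Cyp, against 19.6, 22.3 and 26.4 in Ctrl, with 7 of 8 libraries above the Ctrl mean and a log2 fold change of 0.16 ± 0.06 (SE; edgeR adjusted p = 0.031). The call of Kcnn1 was lost without Maternal_10Cyp replicate 5 (edgeR adjusted p = 0.055) or Ctrl replicate 11 (edgeR adjusted p = 0.0529). Kcnn2, named here after its values were seen, had 16.7, 18.7 and 22.0 in Maternal_10Cyp, against 11.2, 16.4 and 20.4 in Ctrl, with 8 of 8 libraries above the Ctrl mean (log2 fold change 0.24 ± 0.10, SE; edgeR adjusted p = 0.0454). Kcnn3 was lower (-0.31; edgeR adjusted p = 0.0439), so that the family's called members moved in opposite directions in Maternal_10Cyp. Kcnn4 and Kcnu1 were called in 0 comparisons.

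The auxiliary genes were mixed. Kcnab1, a cytoplasmic β subunit that speeds inactivation of Shaker-type channels, was lower in 4 comparisons and had 5.93, 7.22 and 8.30 normalised CPM (lowest, median, highest) in Maternal_10Cyp, against 6.99, 9.70 and 13.02 in Ctrl (log2 fold change -0.48 ± 0.14, SE; edgeR adjusted p = 0.00405). Kcnip2, a calcium sensor that binds Kcnd channels, was lower in Paternal_0.3Cyp (-0.45; edgeR adjusted p = 0.0145) and Maternal_10Cyp (-0.43; edgeR adjusted p = 0.0255), while Kcnip1, Kcnip3 and Kcnip4 were called in 0 comparisons. Kcnmb4 was nearly level with Ctrl, with medians of 38.5 normalised CPM in Maternal_10Cyp and 39.3 in Ctrl. The largest positive values were those of Kcne2, a β subunit of epithelia, with 0.84 in Paternal_10Cyp and 0.85 ± 0.35 (SE) in Both_10Cyp, neither called (edgeR adjusted p = 0.0756 and 0.108).

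Kcne2 and Kcnj13, an inward rectifier of epithelia, varied widely within groups and with choroid plexus markers. Kcne2 ranged from 3.60 to 17.9 normalised CPM in Both_10Cyp, against 0.215 to 10.3 in Ctrl, and the sum of 5 choroid plexus markers (Ttr, Folr1, Kl, Clic6 and Aqp1) from 420.9 to 1087 in Both_10Cyp, against 17.7 to 907.9 in Ctrl. None of these 5 markers was called in any of the 6 comparisons. Over all 76 libraries, log2(normalised CPM + 0.5) of Kcne2 rose with that of the summed markers, with Pearson's r = 0.959 and Spearman's rho = 0.922. Each had a permutation p of 1e-05, the smallest that 100000 permutations can give (1.5e-05 for r, adjusted over 3 relations computed). Without the 2 libraries farthest from the median of the markers r was 0.954, and it was 0.973 in batch 1 and 0.949 in batch 2. For Kcnj13 r was 0.838 and rho 0.795 (permutation p = 1e-05 each), with 0.801 without those 2 libraries, 0.828 in batch 1 and 0.848 in batch 2. Kcnj8 and the summed pericyte markers gave r = 0.377 (permutation p = 0.00084) and rho = 0.32 (permutation p = 0.00493), with 0.34, 0.542 and 0.454 in the same order. These pairs were chosen after the values were seen.

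Genes that work with the channels were counted as lists. Of all genes tested, 12.2%, 12.8% and 11.8% were called lower in Paternal_0.3Cyp, Maternal_0.3Cyp and Both_0.3Cyp. At dose 10 these shares were 10.8%, 20.4% and 1.58% in Paternal_10Cyp, Maternal_10Cyp and Both_10Cyp, and 20.4% were called higher in Maternal_10Cyp. Of 5 genes of the HCN list (pore subunits and their partner Pex5l), which carry the hyperpolarisation-activated current, 3, 5, 3, 3, 5 and 0 were lower in Paternal_0.3Cyp, Maternal_0.3Cyp, Both_0.3Cyp, Paternal_10Cyp, Maternal_10Cyp and Both_10Cyp. In Maternal_10Cyp Pex5l had -0.75, Hcn3 -0.32 and Hcn4 -0.31 (log2 fold changes; edgeR adjusted p from 0.00181 to 0.00672). Of the 6 subunits of the sodium-potassium pump, which keeps the potassium gradient, 4, 4, 4, 5, 5 and 3 were lower in the same order. Its β subunits Atp1b1 and Atp1b2 had -0.59 each in Maternal_10Cyp (edgeR adjusted p = 0.00276 and 0.000137). Of 21 partners of voltage-gated channels 10, 10, 10, 9, 11 and 1 were lower, among them Dpp6, which escorts Kcnd channels (-0.60; edgeR adjusted p = 4e-04 in Maternal_10Cyp), the scaffold Dlg2 (-0.72) and the anchor Ank2 (-0.65). In Maternal_10Cyp 2 partners, Vapa (0.26) and Vapb, which hold Kcnb channels at contact sites with the endoplasmic reticulum, were higher. Of 4 tested partners of calcium-activated and ATP-sensitive channels 1, 1, 1, 1, 2 and 0 were lower, with Lrrc55 at -0.44 ± 0.08 (SE; edgeR adjusted p = 9.06e-05) and Abcc9 at -0.25 in Maternal_10Cyp, while Crbn and Abcc8 were not called.

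Cell type markers moved with these genes. Of all genes tested, 12.2%, 12.8%, 11.8%, 10.8%, 20.4% and 1.58% were called lower in Paternal_0.3Cyp, Maternal_0.3Cyp, Both_0.3Cyp, Paternal_10Cyp, Maternal_10Cyp and Both_10Cyp. In the same order 15.4%, 10.9%, 10.5%, 10.7%, 20.4% and 2.34% were called higher. Of 11 markers of maturing neurons (such as Syt1, Snap25 and Map2) 9, 9, 8, 8, 9 and 2 were lower in Paternal_0.3Cyp, Maternal_0.3Cyp, Both_0.3Cyp, Paternal_10Cyp, Maternal_10Cyp and Both_10Cyp. Their summed level was 1915 to 2551 normalised CPM in Maternal_10Cyp and 1951 to 2912 in Both_10Cyp, against 2364 to 3468 in Ctrl, and none had a median of 0. Snap25 was not lower in all groups, with medians of 113.4 normalised CPM in Paternal_10Cyp and 111 in Both_10Cyp, against 109.5 in Ctrl. Of 8 markers of dividing cells 6, 5, 6, 4, 6 and 0 were higher in the same order, with a summed level of 605 to 818.6 in Maternal_10Cyp, against 432 to 817.4 in Ctrl. All 6 markers of intermediate progenitors were higher in Maternal_10Cyp, at 544.5 to 696.4 summed, against 238.1 to 624.3 in Ctrl, and 6, 6, 4, 2 and 2 in Paternal_0.3Cyp, Maternal_0.3Cyp, Both_0.3Cyp, Paternal_10Cyp and Both_10Cyp. Of 5 markers of oligodendrocyte precursors 3, 4, 4, 3, 5 and 1 were lower, with 89.1 to 114.4 summed in Maternal_10Cyp, against 94.0 to 215.8 in Ctrl. The log2 ratio of embryonic to adult globin counts, which falls as an embryo ages, had medians of -11.01, -10.72, -10.89, -11.40, -10.26 and -11.38 in the 6 exposed groups, against -12.77 in Ctrl. Of 8 radial glia markers 5, 4, 4, 1, 5 and 0 were higher, and of 6 markers of early astrocytes 2, 2, 3, 1, 4 and 0 were lower. The radial glia marker Slc1a3 went the other way, with medians of 148 to 161.9 normalised CPM in the exposed groups, against 187 in Ctrl. Of 6 endothelial markers 1, 1, 1, 2, 2 and 0 were lower, and of 6 pericyte and smooth muscle markers 1, 1, 1, 2, 3 and 0. Of 9 diencephalon markers 4 were higher in Paternal_0.3Cyp, and 1 was lower in each other group. Of 7 erythroid markers 7, 1, 1, 3, 0 and 1 were higher. Microglia had 1 of 6 higher, in Maternal_0.3Cyp, and of 8 tested markers of interneurons and ventral forebrain at most 2 were called in any group. Pax6, Eomes, Cspg4 and Abcc9 each stand in more than 1 list. The part of neuron, progenitor and precursor content and of embryo age in the channel results was not tested.

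Over all 76 libraries the globin ratio itself went with most members, but the count fell from 52 to 15 of 80 without the 5 libraries high in embryonic globin. In a fit with this ratio as a term, 47 of the 80 members fell and 5 rose with it, where 23.2% of all genes fell and 21.7% rose (together 44.9%). The lowest p were those of Kcnip2 (-0.18 ± 0.02 per unit of the log2 ratio, SE; edgeR adjusted p = 6.22e-13), Kcnk1 (-0.14; edgeR adjusted p = 1.16e-12) and Kcnab1 (-0.14; edgeR adjusted p = 1.08e-10). Of the 15 members called without those 5 libraries 14 fell with the ratio, and the share of all genes in that fit is not given here. With the ratio as a covariate in the comparisons with Ctrl, 0, 1, 0, 4, 16 and 0 members were called in Paternal_0.3Cyp, Maternal_0.3Cyp, Both_0.3Cyp, Paternal_10Cyp, Maternal_10Cyp and Both_10Cyp. In the same fit 0.3%, 1.2%, 0.1%, 16%, 28.1% and 0.9% of all genes were called, so that the members' shares in Paternal_10Cyp (5%) and Maternal_10Cyp (20%) were below those of all genes.

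Direct comparisons between exposed groups, taken from the fit of all 76 libraries but without the Ctrl mean, gave no call among the members. Dose 10 against dose 0.3 called 0 of 80 in each kind of parent (edgeR), with 3 members at an unadjusted p under 0.05 in the paternal, 5 in the maternal and 3 in the both-parent comparison. limma called 0 in each, with 6, 10 and 21 at an unadjusted p under 0.05, and of all genes 0.0628%, 0% and 0.00697% were called by edgeR. The members of lowest p were Kcng3, a silent subunit, in Paternal_10Cyp over Paternal_0.3Cyp (-0.96 ± 0.35, SE; edgeR adjusted p = 0.327), followed by Kcnk12 and Kcnj10. They were Kcnt2 in Maternal_10Cyp over Maternal_0.3Cyp (-0.52 ± 0.18, SE; edgeR adjusted p = 0.475), followed by Kcnd1 and Kcnk12, and Kcnj2 in Both_10Cyp over Both_0.3Cyp (0.41 ± 0.18, SE; edgeR adjusted p = 0.999), followed by Kcna4 and Kcns3.

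Mother against father also called 0 members at either dose by edgeR and by limma, with 4 at an unadjusted p under 0.05 by edgeR at each dose (all genes 0.00697% at dose 0.3 and 0% at dose 10). The lowest p were those of Kcnk12 in Maternal_0.3Cyp over Paternal_0.3Cyp (-0.31 ± 0.09, SE; edgeR adjusted p = 0.45), followed by Kcng3 and Kcnh6, and of Kcnt2 in Maternal_10Cyp over Paternal_10Cyp (-0.48; edgeR adjusted p = 0.819), followed by Kcnk3 and Kcnb2. The higher count of calls in Maternal_10Cyp than in Paternal_10Cyp is therefore not matched by a called difference between these groups. Male against female embryos differed in 0 members (edgeR; 5 at an unadjusted p under 0.05, of lowest p Kcnh1, Kcnh8 and Kcns3; limma 0; all genes 0.0907%, of which 0.0418% higher and 0.0488% lower). The change with exposure differed by sex in 0 members (1 at an unadjusted p under 0.05; limma 0; all genes 0.0139%) and by batch in 0 members (5 at an unadjusted p under 0.05, of lowest p Kcnj13, Kcnj4 and Kcne4; limma 0; all genes 0.0349%).

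At dose 10, the fitted change in Both_10Cyp lay above the sum of those in Maternal_10Cyp and Paternal_10Cyp in most members. This was tested as non-additivity, the change in Both_10Cyp minus those in Maternal_10Cyp and Paternal_10Cyp, all against the same Ctrl libraries. Ctrl thus enters the test with a positive sign, so a Ctrl group that is high by itself also gives a positive value. Such a shift of Ctrl cannot be told apart here from an effect of joint exposure. The test called 25 of 80 members higher and 0 lower, where 14.0% of all genes were called higher and 13.3% lower: 16 voltage-gated, 3 leak, 2 inward rectifier, 3 calcium- or sodium-activated and 1 auxiliary. The median over the members was 0.38, against 0.023 over all genes tested. Kcnd1 had the lowest p, with a non-additivity of 0.72 ± 0.16 on the log2 scale (SE; edgeR adjusted p = 0.00233), and its changes were -0.27 in Both_10Cyp, -0.60 in Maternal_10Cyp and -0.39 in Paternal_10Cyp. Kcna6 had 0.61 ± 0.14 (SE; edgeR adjusted p = 0.00252), Kcnj2 1.08 ± 0.27 (SE; edgeR adjusted p = 0.00389) and Kcnk9 1.28 ± 0.35 (SE; edgeR adjusted p = 0.00689). These genes were chosen by their p in this test, and a positive value in it means that the sum of the single-parent changes lay below the change in Both_10Cyp.

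**Figure D5:**
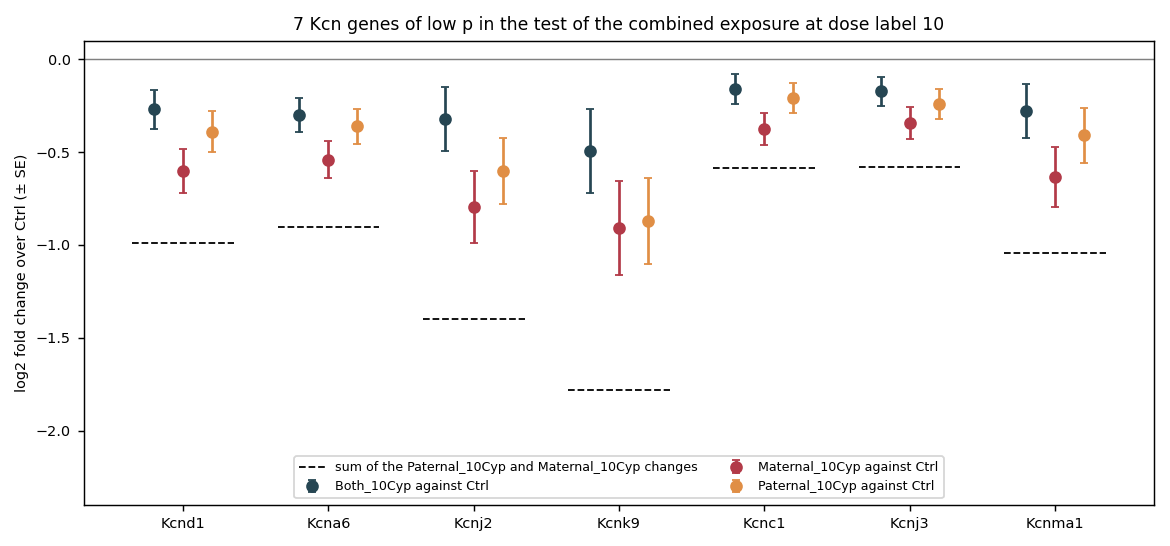
Fitted log2 fold change over Ctrl (points, ± SE) in Both_10Cyp, Maternal_10Cyp and Paternal_10Cyp for 7 potassium channel genes of low p in the test of non-additivity at dose 10, with a dashed line at the sum of the Maternal_10Cyp and Paternal_10Cyp changes. The genes were chosen by that test, and a positive value in it means that the Both_10Cyp point lies above the dashed line, as in all 7. The Both_10Cyp point also lies above the Maternal_10Cyp point in each.

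The count of non-additive members at dose 10 moved with the libraries in the fit. Batch 1 alone gave 0 calls and batch 2 alone 3. Leaving out the 7 libraries rich in diencephalon markers gave 17 calls, and leaving out the 5 rich in embryonic globin gave 38. Leaving out each library in turn gave 15 to 36 calls, with 15 without Both_10Cyp replicate 3 or Maternal_10Cyp replicate 1, 16 without Both_10Cyp replicate 4 or Ctrl replicate 3, and 36 without Both_10Cyp replicate 8. With all libraries, 27.2% of all genes were called in this test. The shares of all genes in the other fits are not given here, so those counts are not read against a background. In Both_10Cyp itself Kcnd2 had -0.20 in batch 1 and -0.58 in batch 2, and the median over the members of batch 2 minus batch 1 was -0.26, with 0 called (edgeR; 15 at an unadjusted p under 0.05; all genes 0%), a comparison added after the data were seen. At dose 0.3 non-additivity called 0 members (edgeR; 18 at an unadjusted p under 0.05; limma 3; all genes 0%), of lowest p Kcnh4 (0.59 ± 0.19, SE; edgeR adjusted p = 0.0816), Kcna6 (0.38) and Kcnk5 (-0.58).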

How the data were processed

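RNA-seq of embryonic dorsal forebrain gave 76 libraries in 7 groups. The authors deposited expected counts (estimated counts per gene, already whole numbers; how they were made whole is not given in the sources used here). Salmon 1.10.1, Trim Galore 0.5.0 and the mm10 build are named, per the submitters' processing notes, and the strand setting is not given in the sources used here. Gene names and coordinates are from GENCODE M21 (GRCm38), and promoters from RefSeq.

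Genes with low counts were filtered by group with filterByExpr, which kept 14339 of 14823. The counts were scaled by TMM and fitted with edgeR 4.0.16 in R 4.3.3 (robust quasi-likelihood) to the 76 libraries together (terms for group, for batch and for sex). P-values were adjusted over all genes tested, with 0.05 as the threshold. Alternatives used DESeq2 1.42.0, limma 3.58.1 and sva 3.50.0, other scalings and filters, offsets for GC content and length, thinning to the smallest library, a globin ratio (pseudocount 0.5), each batch alone and each library left out. The fitting scripts were tested on simulated data. No library's sex label was contradicted, and no 2 libraries agreed within sampling noise.

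The members, gene lists and tests were chosen with earlier results of these data known. Named members are the 8 of lowest p in each comparison with Ctrl, those called in at least 4 comparisons, the 2 highest per family and the 3 of lowest p in each other comparison. Other members are named to account for each family. Some genes that count in the totals are not reported here by name.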

Additional observations from a re-analysis of the deposited data

Results flagged for a closer look

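Kcnq5, an M-current subunit, had 30.9 normalised CPM in Paternal_10Cyp replicate 3, far from the other 9 libraries of its group, which lay between 13.7 and 21.4. Kcnv1, a silent voltage-gated subunit, had 23.2 normalised CPM in Maternal_10Cyp replicate 7, far from the other 7 libraries of its group, which lay between 15.0 and 18.0. These were the 2 groups with an outlying library (Dixon's test) among 54 tested, and chance gives about 1 in 20.

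The fitted change in Both_10Cyp differed from the sum of those in Maternal_10Cyp and Paternal_10Cyp in 25 of 80 members (edgeR, test of non-additivity). All 25 had a smaller fall than that sum, and 27.2% of all genes were called in either direction. These changes share the Ctrl libraries, so a shift of Ctrl alone cannot be told apart from an effect of joint exposure.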

How the results depend on the processing

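Counts of members called against Ctrl are given in the order Paternal_0.3Cyp, Maternal_0.3Cyp, Both_0.3Cyp, Paternal_10Cyp, Maternal_10Cyp and Both_10Cyp, and were 20, 23, 26, 12, 40 and 2. They were 0, 0, 0, 0, 1 and 0 with 2 surrogate variables, 0, 0, 0, 0, 2 and 0 in batch 1 alone, and 0, 1, 0, 4, 16 and 0 with the globin ratio as a covariate. Batch 2 alone gave 6, 7, 24 and 15 in Paternal_0.3Cyp, Both_0.3Cyp, Maternal_10Cyp and Both_10Cyp. Fitting only the groups compared gave 0 in Paternal_0.3Cyp, 37 in Maternal_0.3Cyp, 23 in Paternal_10Cyp and 0 in Both_10Cyp (all genes 0%, 33.8%, 28.2% and 4%). In Paternal_10Cyp the members' share, 29.9%, was near that of all genes. The limma fit gave 36 in Maternal_0.3Cyp, 24 in Paternal_10Cyp and 1 in Both_10Cyp (all genes 34.7%, 30.4% and 6.6%). There the members' shares were 45%, 30% and 1.2%, so that in Paternal_10Cyp and Both_10Cyp they were not above those of all genes. Paternal_10Cyp and Both_10Cyp had 7 and 0 with GC and length offsets (all genes 11.3% and 1.7%). With no batch term they had 6 and 0 (all genes 13.1% and 0.4%). For the other settings against Ctrl the shares of all genes are given in the Results. Without libraries high in diencephalon markers Paternal_0.3Cyp, Paternal_10Cyp and Both_10Cyp had 5, 2 and 0, and without those high in embryonic globin 7, 26 and 0. Single libraries left out gave 8 to 40, 13 to 30, 13 to 32, 4 to 23, 31 to 44 and 0 to 4, and the shares of all genes in those fits are not given here. Non-additivity at dose 10 (25) gave 0 in batch 1, 3 in batch 2, 14 with GC and length offsets, 8 with the globin covariate, 43 by limma, 38 without libraries high in embryonic globin, and 15 to 36 without single libraries. At dose 0.3 (0) limma gave 3. The joint test (20) gave 12 with GC and length offsets and 38 by limma, and the globin slope (52) gave 15 without libraries high in embryonic globin. For non-additivity, the joint test and the slope, the shares of all genes in these other fits are not given here. Their counts are therefore not read against a background. The cause of the shifts between settings was not tested.

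Same-numbered libraries did not deviate together (mean correlation 0.00606 over 210 pairs, lowest -0.489), so the numbers pair nothing. A replicate block gave 27, 22, 26, 7, 27 and 0 members against Ctrl (all genes 30.6%, 22.6%, 25.6%, 13.2%, 30.1% and 0.4%). It gave 15 in the non-additivity at dose 10, 15 in the joint test, and 52 in the slope, for which the shares of all genes are not given here.

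Of 9811 values of named members under other settings, 738 lost the call and 184 gained it. In 360 the sign was not kept, and 19 of these were values called in the comparison. These 19 were with 2 surrogate variables, in Paternal_0.3Cyp, Kcna4 0.033, Kcnd2 0.047, Kcnk3 0.019 and Kcnt1 0.005; in Maternal_0.3Cyp Kcna4 0.105, Kcnc4 0.085, Kcnk1 0.012, Kcnma1 0.013 and Kcnq5 0.012; in Both_0.3Cyp Kcnc4 0.029 and Kcnf1 0.012; in Paternal_10Cyp Kcnc4 0; and in Maternal_10Cyp Kcnc4 0.262, Kcnf1 0.079, Kcnh4 0.086, Kcnip2 0.041, Kcnj4 0.053, Kcnk9 0.041 and Kcnt1 0.090. The median of all genes in Maternal_10Cyp was 0.027 with GC and length offsets, against -0.013 without them. Depth limits the low members: Kcng4 had no count in 33 libraries.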

Other observations

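Within Paternal_0.3Cyp, 3 libraries, chosen after their values were seen, spread the members most. Replicate 8 was the lowest of its group in 30 of 80 members, with a summed level of 960.4 normalised CPM over all of them, and it had 1.104 normalised CPM of Kcna3 and 10.9 of Kcnma1. Replicate 4, high in embryonic globin, was the lowest in 25, with 32.03 of Kcna6 and 1.69 of Kcnj2. Replicate 9, high in diencephalon markers, was the highest in 34, with a summed level of 1621, and had 32.7 of Kcnk9 and 32.2 of Kcnc4. Both_10Cyp replicate 7 and Ctrl replicate 6 were each the lowest of their group in 33 of 80 members.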
